A study of Arabidopsis thaliana with 9 samples.

Results

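Leaves of plants that lack both chloroplast 2-Cys peroxiredoxins were compared, as 1 group, with wild-type leaves. The mutant group held 6 samples, 3 of the genotype 2cpab and 3 of ntrc-2cpab, which also lacks the NADPH-dependent thioredoxin reductase C (NTRC). The wild-type group held 3 samples. The strain was Col-0 throughout, the plants were 8 weeks old and grown in short days, and young rosette leaves were taken 2 h into the light period at 125 µE m-2 s-1. Every sample pooled leaves of 3 plants and was sequenced as poly(A) RNA. No independent lines are named in the labels, so a difference from wild type cannot be told apart from other differences these 2 genotypes may share. Of the 33602 loci in the table, 16384 averaged 1 or more in abundance across all 9 samples, and these are the loci described. Abundance is in scaled units that the table sets relative to the rest of each sample. Read numbers are unknown.

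2-Cys peroxiredoxins are thiol peroxidases. They reduce hydrogen peroxide in the chloroplast stroma, and in doing so they become oxidized and are reduced again by NTRC or by thioredoxins. They are abundant in leaves, and because their oxidized form takes electrons from thioredoxins they also take part in setting how reduced the redox-regulated enzymes of the chloroplast are.

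Transcripts of both peroxiredoxin genes were strongly reduced in the mutants. For 2CPA (AT3G11630), abundance was 3.43 at the lowest, 3.94 at the median and 4.85 at the highest in the 6 mutant samples, against 259, 325 and 310 in wild type replicates 1, 2 and 3. 2CPB (AT5G06290) had 8.88, 9.34 and 10.8 in the mutant samples, against 53.0, 63.4 and 59.4 in wild type. Every mutant sample lay far below every wild-type sample for both genes. The log2 difference, mutants minus wild type, was -5.88 ± 0.101 (SE) for 2CPA and -2.48 ± 0.081 for 2CPB (limma with Benjamini-Hochberg adjusted p = 3.51e-10 and 1.4e-07). NTRC (AT2G41680) differs between the genotypes that make up the group. Its abundance ran from 14.7 to 68.1 in the mutants, against 74.5, 80.2 and 76.1 in wild type, and the pooled difference of -1.23 ± 0.53 did not pass (limma adjusted p = 0.181).

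Wild type replicate 1 stood apart from the other samples. On the first principal component, which held 37% of the variance, the mutant samples lay between 1.28 and 20.8, and wild type replicates 1, 2 and 3 lay at -36.2, -4.42 and -18.3. The root mean square SD between replicates was 0.181 in 2cpab and 0.199 in ntrc-2cpab, against 0.226 in wild type on the log2 scale. Results are therefore given with and without wild type replicate 1.

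Across the leaf transcriptome, transcripts for protein folding in the cytosol and mitochondria and for ribosome assembly in the nucleolus were higher in the plants lacking 2-Cys peroxiredoxins. Fewer loci were lower. Most of the rises, as well as most of the falls, are in none of the lists. The lists with falls include plastid-encoded loci (11 of 133, 8.27%), starch metabolism (4 of 30, 13.3%) and the Calvin-Benson cycle (3 of 20, 15%). They also include antioxidant enzymes (3 of 28, 10.7%), aquaporins (3 of 13, 23.1%) and sulfate assimilation (3 of 13, 23.1%). Among families added after the calls were seen, GDSL and alpha/beta hydrolases had 10 of 163 (6.13%). Over all tested loci the share was 2.57%. The lists were chosen with earlier results of these data known, so their counts, here and below, describe and are no test. A locus was called at an adjusted p under 0.05 in a limma fit over all 16384 loci, and rose and fell are used of called loci alone. In all, 609 loci rose (3.72% of those tested) and 421 fell (2.57%), together 1030 or 6.29%. At an unadjusted p under 0.05 there were 4158 loci, or 25.4%. Most differences were small: 11 rises (0.0671%) and 18 falls (0.11%) reached 2-fold, and the median size of the called differences was 0.41 on the log2 scale. Of the called loci, 576 rises and 412 falls showed no overlap between the 6 mutant and the 3 wild-type samples. Over all tested loci, 7.51% lay above and 7.35% lay below wild type without overlap.

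**Figure D1:**
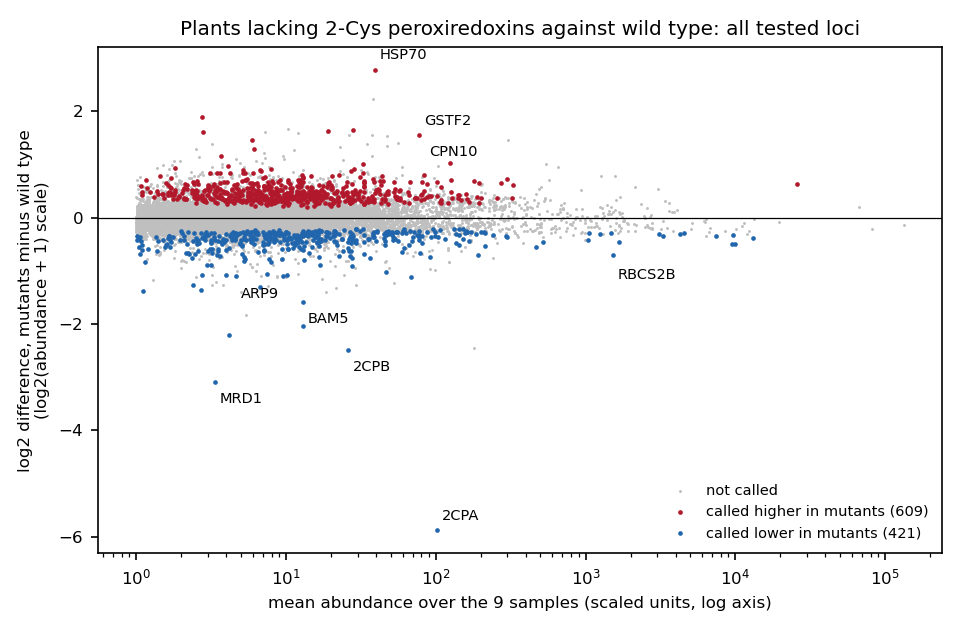
Log2 difference, mutants minus wild type, against mean abundance over the 9 samples (log axis) for 16384 tested loci; red points are the 609 loci called higher and blue points the 421 called lower in the mutants. 2CPA stands at -5.88, HSP70 at 2.78 and MRD1 at -3.09, while most called loci differ by less than 2-fold.

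The number of called loci depended on wild type replicate 1. Without it, 9 loci were called higher (0.0549%) and 7 lower (0.0427%), together 16 or 0.0977% of those tested, while 2830 (17.3%) had an unadjusted p under 0.05. Leaving out any of the other 8 samples gave between 417 and 1086 calls, so several of these samples also moved the count by over 1.5 times: 425 loci were called without 2cpab replicate 2, 576 without 2cpab replicate 3, 505 without ntrc-2cpab replicate 1, 417 without ntrc-2cpab replicate 2 and 565 without wild type replicate 3. Which loci were called changed as well. Without wild type replicate 2, 856 loci were called, and 500 of these were among the 1030. Without wild type replicate 3, 495 of the 565 were. Wild type replicate 1 was the wild-type sample farthest from the mutant mean at 59.8% of the called loci and at 52% of all tested loci. All 1030 called loci kept their sign without it, their median size was then 0.38, and their median adjusted p was 0.0979. At an adjusted p under 0.1, a threshold added after these counts were seen, 2274 loci passed with all samples (13.9%; 7.77% higher and 6.11% lower) and 666 without wild type replicate 1 (4.06%; 2.11% higher and 1.96% lower). These fits share 8 of their samples with the fit over all 9, so they describe how far the calls rest on 1 sample and are no second test. Apart from the 16 loci, every called locus lost its call without wild type replicate 1, with an adjusted p of 0.0508 or more. This holds for each rise and fall named below that is not among the 16, and values without that sample are given for the genes described most fully.

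**Figure D2:**
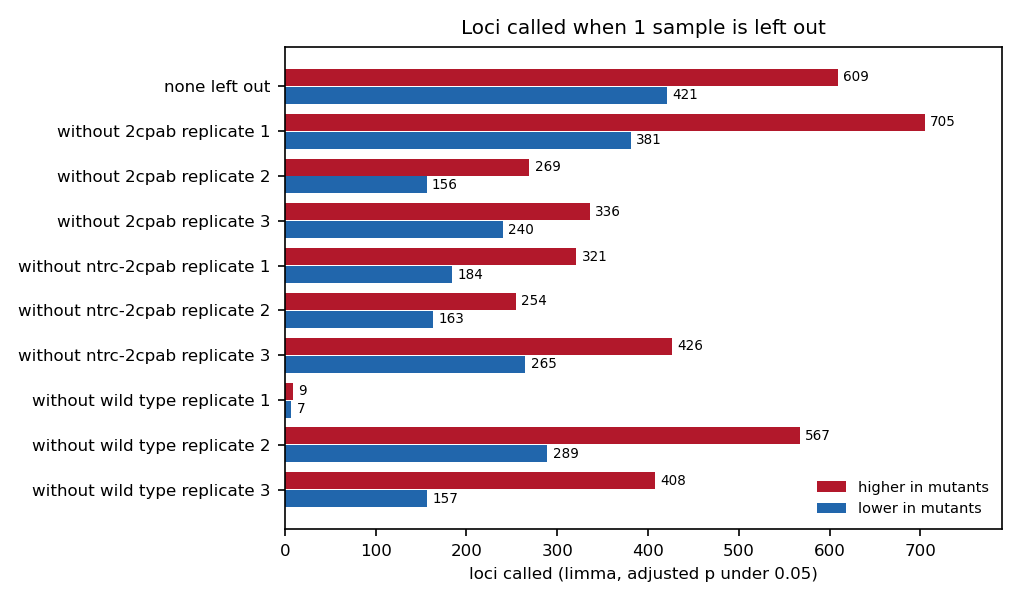
Number of loci called higher (red) and lower (blue) in the mutants by limma at an adjusted p under 0.05, with all 9 samples and with each sample left out in turn. The count falls to 9 and 7 without wild type replicate 1, against 254 to 705 and 156 to 381 when another sample is left out.

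The balance between rises and falls also followed the scaling between samples. Scale factors worked out from the value steps were 0.970 to 1.050 in the mutants and 1.078 to 1.095 in wild type, with no overlap. With this scaling undone, 1761 loci were called higher and 196 lower, so that 90% of the calls were higher, against 59.1% with the deposited scaling. The median difference over all tested loci then moved to 0.079, against -0.0005 with the deposited scaling.

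The 16 loci called with and without wild type replicate 1 hold 4 chaperones among their 9 rises: HSP70, CPN10, MTHSC70-2 and Hsp89.1. Beside these chaperones the rises were AT5G22100, an RNA cyclase family protein, EMB2729, an alpha amylase family protein, RFC2, a subunit of the replication factor C that loads the sliding clamp onto DNA, AT3G11530, a VPS55 family protein, and the transfer RNA locus AT2G07762. The 7 falls were 2CPA, 2CPB, MRD1, ARP9, RD20, RBCS2B and ELI3-1. Of the called loci, 13 were called in all 9 fits that left out 1 sample and 285 in at least 8 of them. AT3G11530 and AT2G07762 were called in only 1 of these 9 fits, the fit without wild type replicate 1. For AT3G11530 that wild-type sample (4.29) lay within the mutant range (4.28 to 4.94). The loci of this paragraph that the naming rule did not pick were added after their values were seen, as were list members given by their difference alone, members that did not pass beyond those the rule picks, family members and plastid loci in the text that follows.

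Of 28 listed cytosolic heat shock proteins and co-chaperones 23 were tested, 16 rose (background 3.72%), 7 did not pass and none fell, and all 23 had a positive difference. The median log2 difference of the list was 0.66, against -0.0005 over all tested loci, and 0.62 without wild type replicate 1, where 1 member was called and 21 had an unadjusted p under 0.05. HSP70 proteins bind unfolded chains, HSP90 proteins mature client proteins, and small heat shock proteins keep unfolding proteins in solution.

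HSP70 (AT3G12580), a cytosolic HSP70, had an abundance of 26.0, 53.3 and 84.6 (lowest, median and highest) in the mutants, against 8.9, 5.81 and 5.66 in wild type replicates 1, 2 and 3. The lowest mutant sample was well above its highest wild-type sample. The log2 difference was 2.78 ± 0.318 (limma adjusted p = 0.00674), and 2.97 without wild type replicate 1 (limma adjusted p = 0.0222). HSP90.1 (AT5G52640), a heat-inducible HSP90, had 6.25, 6.64 and 10.8 in the mutants, against 2.1, 2.7 and 1.66 in wild type. The groups did not overlap, and the difference was 1.46 ± 0.174 (limma adjusted p = 0.00924; 1.45 and 0.0508 without wild type replicate 1). HSP17.6II, a class II small heat shock protein, had 2.44, 3.09 and 7.87 in the mutants, against 0.302, 0.206 and 0.267 in wild type. Its difference was 1.90 ± 0.263 (limma adjusted p = 0.0103; 1.92 and 0.0518 without wild type replicate 1), which understates the change because the scale adds 1 to the abundance. AT5G48570, a peptidyl-prolyl isomerase of the FKBP type, rose by 1.29 ± 0.179 (limma adjusted p = 0.0103; 1.30 and 0.0518 without wild type replicate 1). AT2G29500, an HSP20-like protein, rose by 0.90 ± 0.203 (limma adjusted p = 0.0335; 0.81 and 0.13 without wild type replicate 1).

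Abundant HSP70 and HSP90 genes moved by less. AT3G09440, an HSP70, had 304, 343 and 406 in the mutants, against 184, 210 and 232 in wild type, and rose by 0.73 ± 0.109 (limma adjusted p = 0.0112; 0.64 and 0.055 without wild type replicate 1). HSP81-3, an HSP90, had 206, 224 and 234 in the mutants, against 126, 131 and 168 in wild type, and rose by 0.66 ± 0.092 (limma adjusted p = 0.0103; 0.58 and 0.0518 without wild type replicate 1). In both genes every mutant sample was above every wild-type sample, but HSP81-2 and HSP81-3 are close relatives in sequence, so their separate levels are uncertain. HSC70-1 had 708, 771 and 816 in the mutants, against 690, 553 and 658 in wild type, and did not pass (0.28, limma adjusted p = 0.0705). HSP101, a disaggregase, did not pass either (0.63, limma adjusted p = 0.129), and neither did HSP17.6A (0.72, limma adjusted p = 0.244). Co-chaperones that rose were the HSP90 organizing proteins Hop2 (0.38) and Hop3 (0.71), the J-domain protein J2 (0.53) and Fes1A (0.52), while Hop1 (0.29) and J3 (0.26) did not pass.

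Heat shock transcription factors were not called. Of 13 listed genes, MBF1C included, 9 were tested and 0 were called by limma (1 at an unadjusted p under 0.05), with a median of 0.05 with and without wild type replicate 1. HSFA2, a heat-induced activator, had 0.731, 1.62 and 2.4 in the mutants, against 0.444, 0.7 and 1.15 in wild type (0.59, limma adjusted p = 0.115). MBF1C, a heat-responsive coactivator, had 4.62, 6.69 and 7.92 in the mutants, against 2.89, 5.46 and 6.19 in wild type (0.37, limma adjusted p = 0.279). The groups overlapped in both genes.

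**Figure D3:**
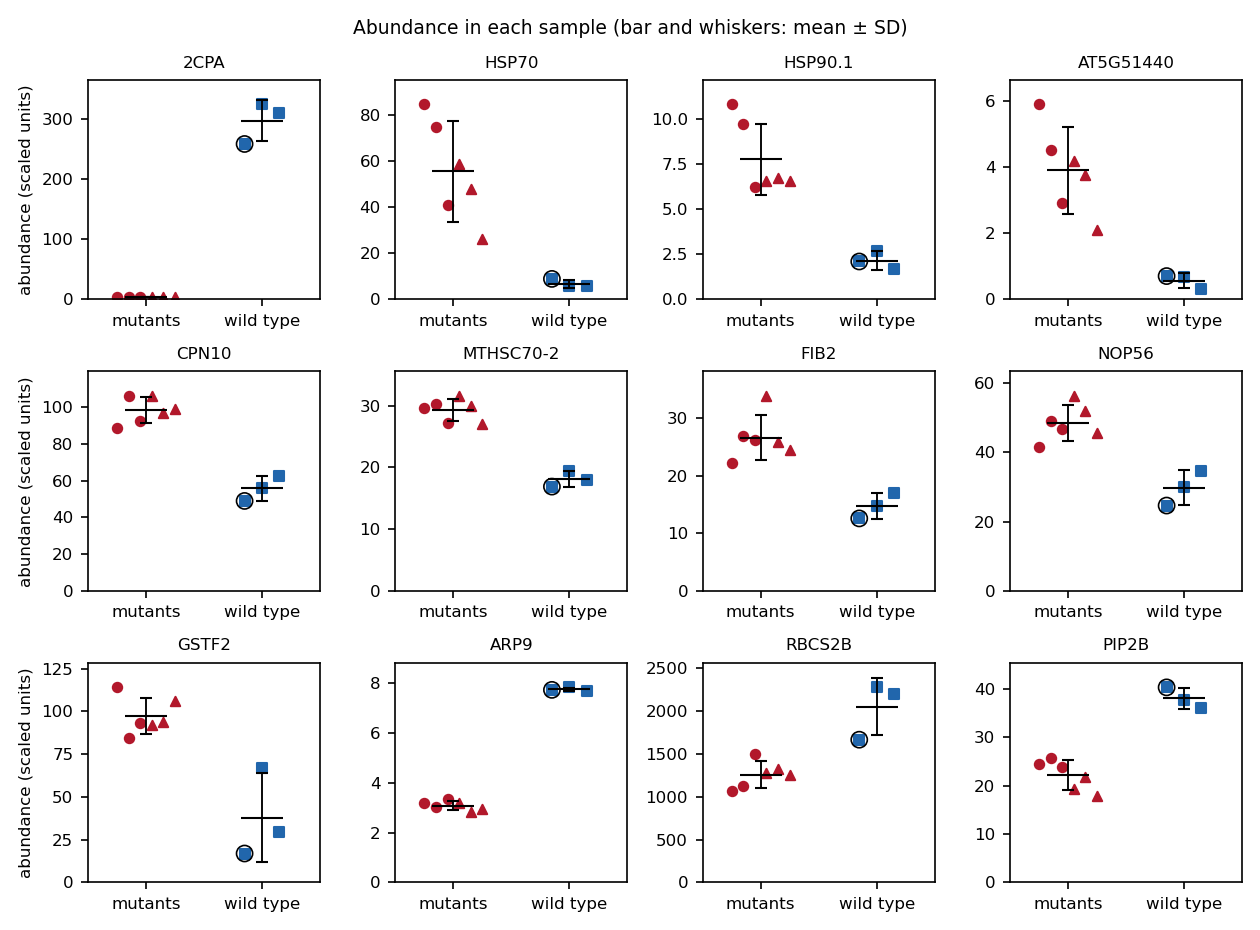
Abundance of 12 genes in each sample, with mutants at left (circles 2cpab, triangles ntrc-2cpab) and wild type at right (squares; replicate 1 is ringed); the bar and whiskers give the mean and SD of the 6 mutant or 3 wild-type samples. HSP70 lies between 26.0 and 84.6 in the mutants and at 8.9 or below in wild type, and MTHSC70-2 between 27.1 and 31.6 in the mutants and at 19.4 or below in wild type.

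Mitochondrial chaperones rose in 10 of 12 tested genes (background 3.72%), and 13 were listed. None fell, all 12 differences were positive, and the median was 0.60, or 0.54 without wild type replicate 1, where 3 members were called. HSP60 and CPN10 form the chaperonin of the mitochondrial matrix, and mitochondrial HSP70 proteins pull in and fold imported proteins.

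CPN10 had an abundance of 88.8, 97.9 and 106 in the mutants, against 48.9, 56.2 and 62.2 in wild type. MTHSC70-2, a mitochondrial HSP70, had 27.1, 29.8 and 31.6 in the mutants, against 16.9, 19.4 and 18.0 in wild type. Hsp89.1, a mitochondrial HSP90, had 20.4, 21.5 and 24.6 in the mutants, against 13.0, 12.9 and 14.8 in wild type. The groups were separate in all 3 genes, with narrow spread on both sides. The log2 differences were 0.81 ± 0.088, 0.67 ± 0.07 and 0.65 ± 0.073 for CPN10, MTHSC70-2 and Hsp89.1 (limma adjusted p = 0.00531, 0.00437 and 0.00641), and without wild type replicate 1 they were 0.72, 0.62 and 0.62 (limma adjusted p = 0.0195, 0.0222 and 0.0405). CPN10 overlaps AT1G14990 in the annotation, so reads of the pair may be mixed.

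HSP60 had 43.8, 51.3 and 59.7 in the mutants, against 30.4, 28.8 and 34.7 in wild type, and rose by 0.69 ± 0.099 (limma adjusted p = 0.0103; 0.68 and 0.0526 without wild type replicate 1). HSP60-2 rose by 0.57 ± 0.085 (limma adjusted p = 0.0112; 0.54 and 0.055 without wild type replicate 1). AT5G51440, an HSP20-like protein on the mitochondrial list, had 2.11, 3.98 and 5.91 in the mutants, against 0.707, 0.681 and 0.317 in wild type. It showed no overlap and rose by 1.61 ± 0.215 (limma adjusted p = 0.0103; 1.68 and 0.0508 without wild type replicate 1). The members that did not pass were the disaggregase CLPB4 (0.20) and the nucleotide exchange factor MGE1 (0.09), whereas AR192, annotated in the same GrpE family as MGE1, rose by 0.60.

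Protein import into mitochondria rose in 7 of 17 tested genes of 20 listed (background 3.72%), with a median of 0.31, or 0.24 and no call by limma without wild type replicate 1 (11 at an unadjusted p under 0.05). All 17 differences were positive with all samples. Small TIM proteins escort membrane proteins across the space between the mitochondrial membranes. TIM13 had 33.8, 36.1 and 45.8 in the mutants, against 19.7, 23.3 and 25.9 in wild type, and rose by 0.70 ± 0.109 (limma adjusted p = 0.0115; 0.60 and 0.0554 without wild type replicate 1). TIM8 rose by 0.64 ± 0.14, TIM10 by 0.47 ± 0.077 and the receptor TOM20-2 by 0.37 ± 0.095 (limma adjusted p = 0.0299, 0.0131 and 0.0467). AT1G18320, annotated as a subunit of an inner membrane translocase, had an abundance of 1.45, 2.02 and 2.43 in the mutants, against 0.659, 1.07 and 1.34 in wild type, and rose by 0.57 ± 0.136 (limma adjusted p = 0.0394; 0.43 and 0.153 without wild type replicate 1). MEE67 rose by 0.53 ± 0.132 with 1 mutant sample within the wild-type range (limma adjusted p = 0.0449). The pore protein TOM40 (0.21) and the channel proteins TIM17-2 (0.19) and TIM17-3 (0.03) did not pass.

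Among chaperones of the endoplasmic reticulum 2 of 16 tested genes rose (12.5%, against 3.72% of all tested loci), although all 16 differences were positive, with a median of 0.52, or 0.38 without wild type replicate 1. The lumenal HSP70 proteins BIP1 and BIP2, near-identical copies, were those called. BIP2 had 74.6, 88.0 and 116 in the mutants, against 49.3, 63.0 and 58.8 in wild type (0.67 ± 0.152, limma adjusted p = 0.0335; 0.57 and 0.133 without wild type replicate 1). BZIP60, a regulator of the unfolded protein response, stood at 0.05 (limma adjusted p = 0.778). In the plastid 3 of 15 tested chaperones rose (20%, against the same 3.72%) and 7 of the 15 had a negative difference, with a median of 0.06. CR88, the plastid HSP90, had 68.3, 75.4 and 87.1 in the mutants, against 42.1, 47.6 and 53.8 in wild type, and rose by 0.67 ± 0.094 (limma adjusted p = 0.0103; 0.58 and 0.0518 without wild type replicate 1). Cpn60beta2 rose by 0.48 ± 0.073 and cpHsc70-2 by 0.29 ± 0.067 (limma adjusted p = 0.0112 and 0.0344). The disaggregase CLPB3 stood at -0.20 and did not pass (limma adjusted p = 0.214), and HSP21 was listed at 0 in every wild-type sample and reached 0.0966 in the mutants. Whether the compartments differ in their response was not tested.

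Genes of the nucleolus and of ribosome assembly rose in 24 of 31 tested members (background 3.72%), of 32 listed. None fell, all 31 differences were positive, and the median was 0.46, or 0.44 without wild type replicate 1, where limma called none of them over all loci and 27 had an unadjusted p under 0.05. The nucleolus is where ribosomal RNA is made, chemically modified by small nucleolar ribonucleoproteins and joined to ribosomal proteins. Fibrillarin methylates ribosomal RNA with NOP56 and NOP58-like partners, and dyskerin-type complexes turn uridine into pseudouridine.

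FIB2, a fibrillarin, had 22.3, 26.1 and 33.9 in the mutants, against 12.6, 14.7 and 17.1 in wild type. NOP56 had 41.4, 48.0 and 56.2 in the mutants, against 24.6, 29.9 and 34.6 in wild type. NUC-L1, the main nucleolin, had 79.5, 102 and 115 in the mutants, against 57.1, 61.7 and 70.1 in wild type. Every mutant sample exceeded every wild-type sample in these genes, with differences of 0.81 for FIB2, 0.70 for NOP56 and 0.64 for NUC-L1 (limma adjusted p = 0.0114, 0.014 and 0.016), and of 0.70, 0.57 and 0.57 without wild type replicate 1. AT5G66540, a U3 small nucleolar ribonucleoprotein, had close replicates, with 6.58, 6.77 and 7.18 in the mutants, against 4.94, 5.2 and 4.96 in wild type (0.38 ± 0.053, limma adjusted p = 0.0103; 0.37 and 0.0518 without wild type replicate 1). NAP57, the dyskerin homologue, rose by 0.49 (limma adjusted p = 0.0173), and its partner AT3G03920, a subunit of the H/ACA complex, by 0.54 (limma adjusted p = 0.0112). Assembly factors of the large subunit included AT5G14520, pescadillo-like (0.46), AT2G40360 (0.52) and AT5G15550 (0.64), WD40-repeat proteins, and the GTPase NSN1 (0.44), all of which rose. RH36 (0.06), AtNug2 (0.14) and PUM23 (0.13) did not pass.

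Families taken from the annotation were examined after the called genes had been seen. Like the counts of the lists above, their counts only describe. All 9 tested Brix and NOP56-like proteins rose, as did all 5 tested exoribonucleases of the exosome, which trims ribosomal RNA precursors. Of 26 DEAD-box RNA helicases 9 rose (34.6%, against 3.72% of all tested loci), and of 61 small nucleolar RNAs 9 rose (14.8%). For these RNAs the median deviation of wild type replicates 1 and 3 (-0.02 and -0.07) lay within or at the edge of the mutant range (-0.07 to 0.24). In poly(A) RNA, values of small nucleolar RNAs and of the transfer RNA loci named in the text also follow the RNA selection. Of 153 WD40-repeat proteins 21 rose (13.7%) and 2 fell (1.31%, against 2.57% of all tested loci). Nuclear-encoded ribosomal proteins rose in 45 of 313 tested genes (14.4%) and fell in 2 (0.639%), with a median of 0.27, or 0.21 without wild type replicate 1. Their summed abundance was 31754 to 37624 in the mutants, against 26457, 30305 and 32695 in wild type, so the groups overlapped. Because 267 of these 313 differences were positive, the scaling matters: their median was 0.37 with the authors' scaling undone. Of 13 prohibitins and related membrane proteins 8 rose (61.5%), and of 9 genes matched for the cytosolic chaperonin CCT 3 rose (33.3%). These were AT3G11830 (0.37), AT5G26360 (0.26) and Cpn60alpha2 (0.52), and the last encodes a plastid chaperonin subunit, not a CCT subunit. The pattern that found this family was revised once, because its first form matched too few loci. Aminoacyl-tRNA synthetases (4 of 51 higher, 1 lower) and pentatricopeptide repeat proteins (6 of 136 higher, 1 lower) held 7.84% and 4.41% higher, against 3.72% of all tested loci. They held 1.96% and 0.735% lower, against 2.57%.

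**Figure D4:**
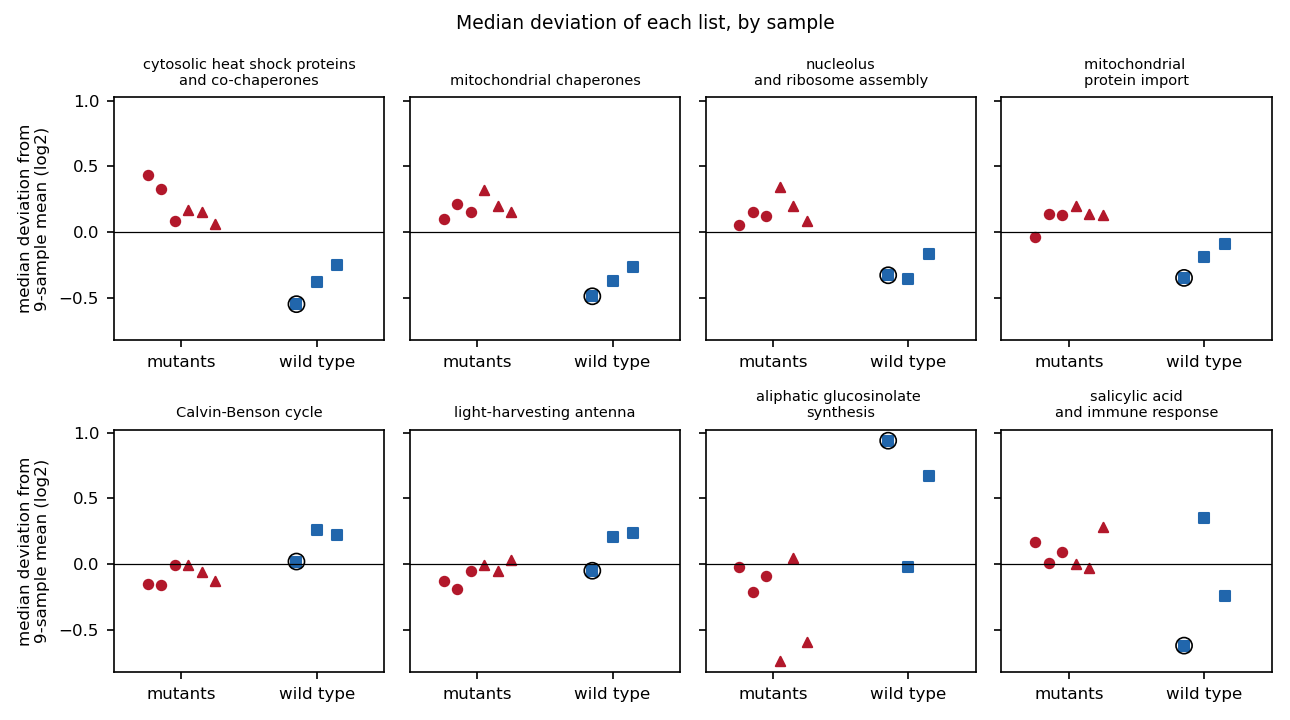
Median deviation of each list's tested members from their 9-sample means on the log2 scale, for mutants (left; circles 2cpab, triangles ntrc-2cpab) and wild type (right; squares, replicate 1 ringed). For mitochondrial chaperones the mutants lie between 0.10 and 0.32 and wild type between -0.49 and -0.27, while for aliphatic glucosinolate synthesis wild type replicate 2 lies at -0.02, within the mutant range.

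The letters before the annotated starts of the called genes were then counted in the 250 bases upstream, in the RefSeq assembly TAIR10.1, on both strands. The values below describe called genes and make no test, and a match is not a bound site. Of 585 protein-coding genes that rose, 37.9% held a site II element (TGGGCC or TGGGCT), against 24.4% of all 15615 tested protein-coding genes, and of 397 that fell 21.2% did. The telo box (AAACCCTA) stood in 8.38% of those that rose and 3.78% of those that fell, against 3.75% of all tested. Both elements are known in plants from genes for ribosome assembly and ribosomal proteins, and site II elements also from genes for mitochondrial proteins. A site II element stood before 18 of 24 rising genes of the nucleolus list (75%), 7 of 10 of the mitochondrial chaperones (70%) and 5 of 7 of the mitochondrial import genes (71.4%). The G box (CACGTG), an element of light- and abscisic acid-regulated genes, went the other way: 4.79% of the genes that rose and 12.6% of those that fell held it, against 7.42% of all tested.

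The remaining elements were counted in the same way. The heat shock element, searched as GAANNTTC or TTCNNGAA, which can overlap each other, stood before 19% of the genes that rose and 14.9% of those that fell, against 15.6% of all tested, before 3 of 16 rising genes of the cytosolic chaperone list (18.8%) and before 9 of 24 of the nucleolus list (37.5%). In the 300-base window it stood in 22.4% of the genes that rose and 16.9% of those that fell, against 18.7% of all tested, in 7 of 16 rising genes of the cytosolic chaperone list (43.8%) and in 11 of 24 of the nucleolus list (45.8%). The W box (TTGACC or TTGACT) stood before 26.8% and 23.4%, against 27.5% of all tested. The evening element (AAAATATCT) stood before 1.54% and 1.26%, against 2.51% of all tested. With the window extended 50 bases past the start, to 300 bases, site II shares were 42.6% of genes that rose, 23.4% of those that fell and 27.9% of all tested, and telo box shares were 21.9%, 4.28% and 5.77%. The G box then stood in 5.81% of the genes that rose and 16.1% of those that fell, against 9.02% of all tested.

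Upstream windows are shown for 3 rising genes of the nucleolus and mitochondrial chaperone lists, from those with the most site II and telo box matches where no other annotated gene lies in the window. They were picked after the calls and shares were known, so they illustrate the letters and do not represent their frequency. An earlier choice of windows was replaced because several overlapped a neighbouring gene. It included HSP70, HSP90.1, AT5G48570 and HSP17.6II, whose upstream windows held neither searched form of the heat shock element. Other forms of the element were not searched, and these windows ended at the annotated start. The absence of a match therefore does not show that these genes lack the element. All windows shown here read 5′ to 3′ on the strand of the gene. Capitals mark site II elements and telo boxes on either strand, so GGCCCA and AGCCCA are site II elements read from the other strand, and TGGGCCCA counts as 2. In the nucleolus list the genes were FZF (chr2:10402935-10403184, minus strand), with 3 site II elements and 1 telo box, and AT5G15550 (chr5:5062145-5062394, minus strand), with 3 site II elements.
FZF: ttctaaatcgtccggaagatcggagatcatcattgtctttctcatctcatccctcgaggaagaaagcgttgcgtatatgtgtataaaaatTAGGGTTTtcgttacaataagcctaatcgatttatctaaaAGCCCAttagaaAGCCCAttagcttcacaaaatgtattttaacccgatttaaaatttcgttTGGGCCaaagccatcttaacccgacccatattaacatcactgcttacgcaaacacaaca
AT5G15550: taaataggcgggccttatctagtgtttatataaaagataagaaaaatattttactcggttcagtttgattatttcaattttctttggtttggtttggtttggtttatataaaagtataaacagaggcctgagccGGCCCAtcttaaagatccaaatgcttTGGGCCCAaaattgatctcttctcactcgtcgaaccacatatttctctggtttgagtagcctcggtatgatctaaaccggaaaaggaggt

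Among the mitochondrial chaperones, the window of AR192 (chr4:13486859-13487108, minus strand) holds 1 site II element.
AR192: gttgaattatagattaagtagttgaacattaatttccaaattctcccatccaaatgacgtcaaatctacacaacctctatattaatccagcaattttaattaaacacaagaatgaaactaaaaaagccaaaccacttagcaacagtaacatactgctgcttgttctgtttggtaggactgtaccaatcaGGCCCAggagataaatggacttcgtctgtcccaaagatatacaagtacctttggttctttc

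For the genes that fell, the windows of CH1 (chr1:16851272-16851521, minus strand) and AT3G28220 (chr3:10523931-10524180, plus strand) are shown, which hold 2 G boxes each, here in capitals.
CH1: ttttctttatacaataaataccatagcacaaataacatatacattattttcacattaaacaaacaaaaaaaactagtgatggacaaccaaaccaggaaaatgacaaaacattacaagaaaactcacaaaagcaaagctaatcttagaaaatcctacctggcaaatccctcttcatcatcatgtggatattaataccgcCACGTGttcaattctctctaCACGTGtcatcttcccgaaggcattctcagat
AT3G28220: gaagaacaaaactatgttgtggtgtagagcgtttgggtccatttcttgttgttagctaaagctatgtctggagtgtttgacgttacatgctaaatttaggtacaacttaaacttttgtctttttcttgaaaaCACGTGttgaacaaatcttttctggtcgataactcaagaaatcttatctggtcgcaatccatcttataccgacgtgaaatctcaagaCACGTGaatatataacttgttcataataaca

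Of 20 tested phi and tau class glutathione transferases 3 rose (background 3.72%) and none fell, and all 3 are of the phi class. In the family 12 of 20 differences were negative, with a median of -0.06 and a lowest value of -0.93. These enzymes join glutathione to reactive compounds, and several phi members are induced by salicylic acid. GSTF6 had an abundance of 27.5, 34.4 and 55.7 in the mutants, against 7.18, 18.9 and 8.46 in wild type, and rose by 1.65 ± 0.281 (limma adjusted p = 0.0157; 1.40 and 0.0699 without wild type replicate 1). GSTF2 had 84.7, 93.4 and 114 in the mutants, against 16.9, 66.8 and 29.6 in wild type, and rose by 1.55 ± 0.313 (limma adjusted p = 0.0235; 1.10 and 0.0714 without wild type replicate 1). GSTF7, the near-identical neighbour of GSTF6, rose by 1.63 ± 0.371 (limma adjusted p = 0.0336; 1.35 and 0.137 without wild type replicate 1). In all 3 genes the mutants lay above wild type, but wild type replicate 2 stood between the mutants and the other wild-type samples.

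Immune genes of the salicylic acid pathway varied with the same wild-type sample. PR5 had 50, 66.4 and 90.2 in the mutants, against 10.7, 68.7 and 19.7 in wild type replicates 1, 2 and 3, and did not pass (1.40, limma adjusted p = 0.0857). BGL2, a glucanase, had 17.3, 45.8 and 79.6 in the mutants, against 4.79, 49.0 and 9.14 in wild type (1.55, limma adjusted p = 0.161). Wild type replicate 2 lay within the mutant range in both, and the other wild-type samples lay below every mutant sample. The 17 tested genes of the list had a summed abundance of 246 to 386 in the mutants, against 109, 354 and 163 in wild type. None was called by limma and 7 had an unadjusted p under 0.05 (1 without wild type replicate 1), and the list median was 0.33, or 0.12 without wild type replicate 1. The part of this variation in the glutathione transferase values was not tested.

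Among the other large rises were AT4G34950, a major facilitator transporter, HDA3, a histone deacetylase of the plant-specific nucleolar type, and AMT2, an ammonium transporter. HDA3 had 28.4, 33.3 and 40 in the mutants, against 15.7, 15.7 and 20.9 in wild type, and rose by 0.92 ± 0.119 (limma adjusted p = 0.0103; 0.85 and 0.0518 without wild type replicate 1). AT5G20160, an L7Ae-type protein, had 33.5, 39.8 and 42.2 in the mutants, against 15.6, 23.6 and 24.9 in wild type, and rose by 0.84 ± 0.134 (limma adjusted p = 0.012; 0.64 and 0.0508 without wild type replicate 1). AT3G13525, a small nucleolar RNA, rose by 0.85 ± 0.155 (limma adjusted p = 0.0177; 0.92 and 0.0589 without wild type replicate 1). AT2G21640, annotated as a marker of oxidative stress response, had 5.86, 7.05 and 8.76 in the mutants, against 4.95, 2.39 and 3.64 in wild type, and rose by 0.84 ± 0.169 (limma adjusted p = 0.0235; 1.04 and 0.0508 without wild type replicate 1). It was the single call among 8 tested genes of the mitochondrial retrograde list (12.5%, against 3.72% of all tested loci). The median of that list was 0.18, or 0.05 without wild type replicate 1. AT2G37690, a phosphoribosylaminoimidazole carboxylase of purine synthesis, rose by 0.84 ± 0.128 (limma adjusted p = 0.0112), and AT1G05135, with no product in the annotation used, rose by 0.89 ± 0.176 (limma adjusted p = 0.0224). AT4G34950 rose by 1.02 ± 0.218 and AMT2 by 0.88 ± 0.225 (limma adjusted p = 0.028 and 0.0467).

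MRD1, a gene named for its reduced level in a methionine overaccumulating mutant, and ARP9 fell with and without wild type replicate 1. MRD1 (AT1G53480) was listed at 0 in the lowest mutant sample, at 0.0646 at the median and at 1.52 in the highest, against 9.83, 8.99 and 9.41 in wild type. Its log2 difference was -3.09 ± 0.26 (limma adjusted p = 0.000927; -3.06 and 0.012 without wild type replicate 1). ARP9, an actin-related protein, had 2.84, 3.09 and 3.33 in the mutants, against 7.73, 7.83 and 7.70 in wild type. Replicates were close in both groups, and the difference was -1.10 ± 0.059 (limma adjusted p = 1.35e-05), with the same value without wild type replicate 1. The transfer RNA locus AT1G33370 had 0.255, 1.47 and 3.31 in the mutants, against 6.97, 10.1 and 11.8 in wild type (-2.20 ± 0.33, limma adjusted p = 0.0112; -2.40 and 0.0508 without wild type replicate 1). AT2G16367, with no product in the annotation used, had 2.62, 6.25 and 9.17 in the mutants, against 26.0, 18.5 and 36.3 in wild type (-2.04 ± 0.368, limma adjusted p = 0.0177; -2.04 and 0.0721 without wild type replicate 1).

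Large falls were also seen in genes of varied function. XTH31, which remodels xyloglucan in the wall, had 2.36, 3.62 and 6.28 in the mutants, against 16.7, 8.04 and 10.7 in wild type (-1.31 ± 0.257, limma adjusted p = 0.0215; -1.05 and 0.0925 without wild type replicate 1). BAM5, a beta-amylase outside the plastid, had 4.06, 6.93 and 9.21 in the mutants, against 47.1, 10.6 and 18.8 in wild type. Wild type replicate 1 was far the highest sample, and the difference of -1.58 ± 0.382 (limma adjusted p = 0.0407) was -1.03 without it (limma adjusted p = 0.117). RD20, a caleosin of drought and abscisic acid responses, had 28.1, 34.6 and 36.6 in the mutants, against 104, 55.3 and 56.5 in wild type (-1.02 ± 0.177, limma adjusted p = 0.0165; -0.73 and 0.0346 without wild type replicate 1). AT3G28220, a TRAF-like protein, fell by 1.12 ± 0.257 and AT3G28270, a DUF677 protein, by 1.35 ± 0.189 (limma adjusted p = 0.0355 and 0.0103). AT5G24155, an oxidoreductase family protein, fell by 1.05 ± 0.201 and AT1G20070, an uncharacterized protein, by 1.07 ± 0.171 (limma adjusted p = 0.02 and 0.0124).

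Expansins, which loosen the cell wall during growth, fell in 2 of 12 tested genes (background 2.57%), and 11 of the 12 differences were negative, with a median of -0.42, or -0.24 without wild type replicate 1. EXPB3 had 5.02, 7.11 and 9.94 in the mutants, against 19.8, 12.6 and 15.5 in wild type, and fell by 1.07 ± 0.191 (limma adjusted p = 0.0177; -0.91 and 0.0739 without wild type replicate 1). EXPA4 had 8.79, 9.98 and 10.8 in the mutants, against 15.1, 13.5 and 15.1 in wild type, and fell by 0.52 ± 0.075 (limma adjusted p = 0.0103; -0.50 and 0.0526 without wild type replicate 1). Both genes were without overlap. Plasma membrane aquaporins, channels for water across the cell membrane, fell in 3 of 13 tested genes, with a median of -0.24, or -0.26 without wild type replicate 1. PIP2B had 17.9, 22.9 and 25.7 in the mutants, against 40.3, 37.7 and 36.1 in wild type (-0.76 ± 0.111, limma adjusted p = 0.0103; -0.72 and 0.0548 without wild type replicate 1). PIP1A fell by 0.48 and PIP1B by 0.53 (limma adjusted p = 0.0324 and 0.0488). Members of this family have near-identical copies, which makes their separate levels uncertain.

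Most nuclear genes of photosynthesis had a negative difference. Of 34 genes for photosystems and electron transport 2 fell (5.88%, against 2.57% of all tested loci) and 31 differences were negative (median -0.17, or -0.25 without wild type replicate 1). Of 17 antenna genes 1 fell (5.88%) and all 17 differences were negative (median -0.19, or -0.28). Of 20 Calvin-Benson cycle genes 3 fell (15%) and 19 differences were negative (median -0.25, or -0.32). Unlike the chaperone lists, these medians were larger in size without wild type replicate 1. With the authors' scaling undone, the 3 medians were -0.07, -0.09 and -0.15. In the median deviation of the photosystem list, wild type replicate 1 (-0.08) lay within the mutant range (-0.18 to 0.03). It also did so in the antenna list (-0.05, against -0.19 to 0.03 in the mutants). Wild type replicates 2 and 3 lay above every mutant sample in both lists. In the Calvin-Benson list wild type replicate 1 (0.02) lay just above the mutants (-0.16 to -0.01).

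CYP38, a thylakoid lumen cyclophilin needed to assemble photosystem II, had 47.9, 49.6 and 53.5 in the mutants, against 66.4, 67.5 and 70.7 in wild type. It fell by 0.43 ± 0.059 (limma adjusted p = 0.0103; -0.45 and 0.0508 without wild type replicate 1). PSAG, of photosystem I, had 1314, 1370 and 1418 in the mutants, against 1588, 1762 and 1655 in wild type (-0.29 ± 0.06, limma adjusted p = 0.0257; -0.32 and 0.0554 without wild type replicate 1). LHCB6, an antenna protein of photosystem II, fell by 0.28 ± 0.065 (limma adjusted p = 0.0357; -0.32 and 0.066 without wild type replicate 1). In the carbon cycle RBCS2B, which encodes a small subunit of Rubisco and has near-identical relatives, had 1063, 1267 and 1503 in the mutants, against 1664, 2274 and 2199 in wild type (-0.70 ± 0.126, limma adjusted p = 0.0177; -0.84 and 0.0486 without wild type replicate 1). CP12-2, which binds 2 enzymes of the cycle in the dark, fell by 0.43 ± 0.066 and RCA, which activates Rubisco, by 0.30 ± 0.075 (limma adjusted p = 0.0112 and 0.0443). These genes lay below wild type in every mutant sample.

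Of the mesophyll markers CA1, a carbonic anhydrase, fell to between 832 and 1033 in the mutants, against 1191, 1304 and 1253 in wild type (-0.42 ± 0.084, limma adjusted p = 0.0235; -0.45 and 0.0657 without wild type replicate 1). In bulk leaf RNA, fewer cells of a type and less RNA per cell cannot be told apart. The 3 mesophyll markers summed to 21936 to 23259 in the mutants, against 23434, 29484 and 27735 in wild type. Of 7 guard cell markers 1 fell (14.3%, against 2.57% of all tested loci), the potassium channel KAT1 (-0.46 ± 0.095, limma adjusted p = 0.0255; -0.43 and 0.0993 without wild type replicate 1). The guard cell list summed to 120 to 154 in the mutants, against 114, 145 and 141 in wild type. None of the tested phloem (5), xylem (6), trichome (3), dividing cell (6) and flower (2) markers was called by limma; at an unadjusted p under 0.05 there were 2, 0, 1, 0 and 0. Root markers were absent or near it: PHT1;1 was listed at 0 in every sample, and none of the 3 passed the abundance filter. The part of cell composition in the differences was not tested.

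Of 27 genes of chlorophyll and tetrapyrrole synthesis 2 fell (7.41%, against 2.57% of all tested loci), with a median of -0.13. CH1, which makes chlorophyll b and whose G boxes are shown above, had 69.3, 73.2 and 78.5 in the mutants, against 94.4, 96.5 and 90.1 in wild type (-0.34 ± 0.062, limma adjusted p = 0.0177; -0.34 and 0.0657 without wild type replicate 1). GUN4, which assists the magnesium chelatase, fell by 0.29 ± 0.071 (limma adjusted p = 0.0415; -0.27 and 0.131 without wild type replicate 1). Of 30 starch genes 4 fell (13.3%, against the same 2.57%), with a median of -0.12: beside BAM5 these were the plastid beta-amylase BAM1 (-0.36 ± 0.068, limma adjusted p = 0.0189), the phosphatase LSF2 (-0.49 ± 0.104, limma adjusted p = 0.0257) and RCP1, the plastid maltose exporter (-0.31 ± 0.061, limma adjusted p = 0.0214). No mutant sample of CH1 or BAM1 reached the wild-type range.

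Of 28 tested antioxidant enzyme genes none was called higher and 3 fell (10.7%, against 2.57% of all tested loci), with a median of -0.07, or -0.14 without wild type replicate 1. PRXQ, another plastid peroxiredoxin, had 126, 139 and 153 in the mutants, against 159, 200 and 183 in wild type (-0.39 ± 0.086, limma adjusted p = 0.031; -0.48 and 0.0526 without wild type replicate 1). The plastid glutathione reductase GR fell by 0.33 ± 0.079 and DHAR3, which recycles ascorbate, by 0.26 ± 0.064 (limma adjusted p = 0.0387 and 0.0417). Catalase CAT2 (-0.33, limma adjusted p = 0.112), the thylakoid ascorbate peroxidase TAPX (-0.21, limma adjusted p = 0.0907) and sulfiredoxin SRX, which repairs overoxidized 2-Cys peroxiredoxins (-0.11, limma adjusted p = 0.497), did not pass. In the plastid thioredoxin system 2 of 20 genes fell: TRXF2, an f-type thioredoxin, with 23.8, 26.2 and 28.4 in the mutants, against 32.6, 37.7 and 35.5 in wild type (-0.42 ± 0.073, limma adjusted p = 0.0173), and the y-type thioredoxin ty2 (-0.33 ± 0.072, limma adjusted p = 0.0309).

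Genes that mark oxidative stress in leaves were mostly near or under the abundance filter. Of 15 listed 6 were tested, and 0 were called by limma (2 at an unadjusted p under 0.05). The iron store FER1 had 26.2, 29.4 and 34.5 in the mutants, against 13.3, 37.8 and 12.3 in wild type (0.65, limma adjusted p = 0.179). The zinc finger gene STZ had 3.28, 6.18 and 7.72 in the mutants, against 4.63, 18.4 and 5.14 in wild type (-0.37, limma adjusted p = 0.557). Wild type replicate 2 was the highest sample for both genes, so the groups overlapped. The ascorbate peroxidase APX2, a marker of excess light, was listed at 0 in every sample.

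Sulfate assimilation fell in 3 of 13 tested genes (background 2.57%), with a median of -0.18. APR1, which reduces activated sulfate, had 11.4, 12.8 and 16.6 in the mutants, against 27.7, 19.0 and 22.7 in wild type (-0.74 ± 0.133, limma adjusted p = 0.0177; -0.61 and 0.0722 without wild type replicate 1). AT5G26220, a ChaC-like protein of the family that degrades glutathione, fell by 0.58 ± 0.135 and SERAT2;1, which feeds cysteine synthesis, by 0.27 ± 0.068 (limma adjusted p = 0.0367 and 0.045). Aliphatic glucosinolates are sulfur-rich defence compounds. All 16 tested genes of their synthesis had a negative difference, with a median of -0.77, or -0.59 without wild type replicate 1, yet 1 was called. IPMI2, of side-chain elongation, had 4.15, 6.98 and 8.92 in the mutants, against 18.5, 8.56 and 19.5 in wild type (-1.10 ± 0.279, limma adjusted p = 0.0463; -0.94 and 0.179 without wild type replicate 1). Wild type replicate 2 lay within the mutant range for this gene, and also in the median deviation of the list.

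Iron deficiency genes showed the same split among wild-type samples. Their 14 tested members had a median of -0.60, or -0.46 without wild type replicate 1, and none was called by limma (4 at an unadjusted p under 0.05). The list also holds genes of iron storage, the ferritins FER1 (0.65), FER3 (0.15) and FER4 (0.56). These were its 3 positive differences, and the other 11 were negative. AT1G47400 had 1.20, 4.07 and 6.92 in the mutants, against 18.0, 1.54 and 24.6 in wild type (-1.28, limma adjusted p = 0.271). The transcription factor gene bHLH39 had 0.0447, 1.14 and 2.82 in the mutants, against 5.24, 0.409 and 9.15 in wild type (-1.11, limma adjusted p = 0.259). In both, wild type replicates 1 and 3 lay above every mutant sample and wild type replicate 2 lay within the mutant range.

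**Figure D5:**
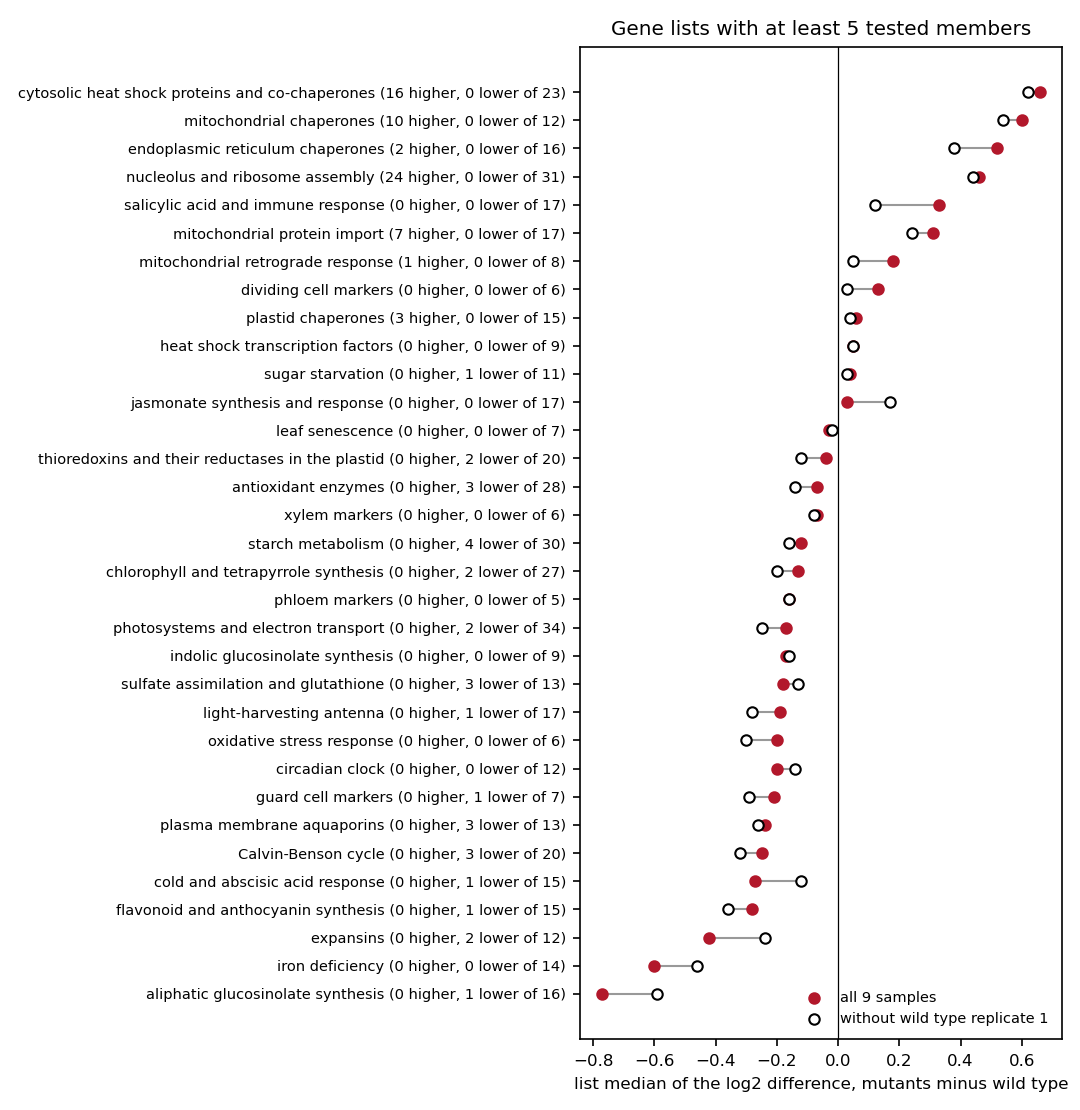
Median log2 difference, mutants minus wild type, of each gene list with at least 5 tested members, over all 9 samples (red) and without wild type replicate 1 (open circles); the numbers of called members stand beside each name. Cytosolic heat shock proteins have the highest median (0.66, or 0.62 without that sample) and aliphatic glucosinolate synthesis the lowest (-0.77, or -0.59).

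Apart from families added after the calls were seen, the remaining lists held at most 1 call each. ASN1, an asparagine synthetase induced by sugar starvation, had 4.78, 5.57 and 8.89 in the mutants, against 10.4, 15.3 and 9.56 in wild type, and fell by 0.84 ± 0.185 (limma adjusted p = 0.0305; -0.91 and 0.0865 without wild type replicate 1). COR15A, a cold-regulated chloroplast protein, had 103, 119 and 145 in the mutants, against 195, 163 and 146 in wild type, and fell by 0.47 ± 0.112 (limma adjusted p = 0.0391; -0.36 and 0.147 without wild type replicate 1). AT4G14090, a glycosyltransferase on the flavonoid and anthocyanin list, fell by 0.67 ± 0.157 (limma adjusted p = 0.0365; -0.58 and 0.147 without wild type replicate 1). None of the circadian clock, jasmonate, indolic glucosinolate and leaf senescence genes was called by limma, at medians of -0.20, 0.03, -0.17 and -0.03, and 6, 2, 2 and 1 had an unadjusted p under 0.05. Of 33 tested mitochondrial substrate carriers, a family added after the calls were seen, 3 rose (9.09%) and 1 fell (3.03%). Among all tested loci 3.72% rose and 2.57% fell. B-box zinc finger proteins, a family of light-responsive regulators also added after the calls were seen, fell in 3 of 20 tested genes (15%). The share over all tested loci was 2.57%. Among them BBX16 had 22.3, 26.7 and 33.6 in the mutants, against 49.2, 46.7 and 38.6 in wild type (-0.68, limma adjusted p = 0.0182), and COL4 fell by 0.37 (limma adjusted p = 0.0189).

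Of 133 plastid-encoded loci 11 fell (8.27%, against 2.57% of all tested loci) and 2 rose (1.5%, against 3.72%). Their median was 0.00, or 0.06 without wild type replicate 1. ATCG00340 had 7445, 8887 and 9289 in the mutants, against 13458, 11905 and 11652 in wild type (-0.50 ± 0.085, limma adjusted p = 0.0154; -0.44 and 0.0589 without wild type replicate 1). ATCG00610 fell by 0.54 ± 0.101 (limma adjusted p = 0.0188), whereas ATCG00260 rose by 0.49 ± 0.125 (limma adjusted p = 0.0467). The plastid share of the summed abundance ran from 46.8 to 55.9% over the samples, and in poly(A) RNA it also follows the RNA selection. The summed abundance of plastid loci was 452275 to 520901 in the mutants, against 575062, 529927 and 528973 in wild type, without overlap. The cause of this difference was not tested. Of 126 tested mitochondria-encoded loci 2 rose (1.59%, against 3.72% of all tested loci) and 1 fell (0.794%, against 2.57%), with a median of 0.05.

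The pooled differences did not separate the genotypes within the group. Between ntrc-2cpab and 2cpab, limma called 1 locus of 16384 (0.0061%), NTRC itself, and 708 had an unadjusted p under 0.05 (4.32%). None of the 1030 loci called in the pooled comparison was called between the genotypes, and 55 of them had an unadjusted p under 0.05. In the pooled fit a difference between the genotypes counts as spread within the mutant group. A pooled call therefore favours loci where the genotypes are close, and these counts cannot show that they respond alike. With 3 samples each, a p that misses the threshold does not show that the genotypes are alike.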

How the data were processed

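Poly(A) RNA of young rosette leaves was measured in 9 samples, which the labels call biological replicates. The submitters' processing notes name FastQC, HISAT2, StringTie and TAIR10; their settings are unknown here. The authors deposited 1 table of log2 values of the form log2(abundance + 1), with the same 75th percentile (2.7483) in each sample. Between 99.0 and 99.4% of 1000 low values per sample were whole steps of 1 factor within 0.1, and these factors undo the scaling. Depth is unknown, so precision rests on replicates.

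Loci with mean abundance of at least 1 were fitted with limma 3.58.1 in R 4.3.3 (lmFit, eBayes with trend, mutants against wild type, 7 residual degrees of freedom); two-sided p-values were adjusted by Benjamini-Hochberg over 16384 loci. Differences on this scale understate changes of low loci. RefSeq TAIR10.1 gave names for 32835 of 33602 loci and upstream sequence; some upstream windows are not reported here. Of the called loci 347 overlap another annotated gene, and the strand used in counting is unknown here. Named were the mutated genes, up to 15 rises and 15 falls (2-fold; 1.5-fold for rises, where few passed; mean of at least 5; no overlap), up to 6 called members per list (else 2), and the exceptions stated. Members, 38 lists and named genes were chosen with earlier results of these data known. The fit was tested on simulated data. Alternatives were other groupings, filters, offsets, scalings, weights, variance models, a replicate block, left-out samples and a 300-base window.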

Additional observations from a re-analysis of the deposited data

Results flagged for a closer look

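NTRC differed between the genotypes of the mutant group, by -1.95 on the log2 scale for ntrc-2cpab minus 2cpab (limma over all loci). Single mutant samples stood apart in 8 of 113 genes checked, where about 1 in 20 would by chance. AT4G34950 had 66.1 in ntrc-2cpab replicate 1 and 30 to 36.6 in the other mutant samples. AMT2 had 14.2 and CYP79B3 13.6 in ntrc-2cpab replicate 3, with 6.29 to 8.37 and 6.98 to 8.12 in the others. MRD1 had 1.52 in ntrc-2cpab replicate 2 and at most 0.148 in the others. In 2cpab replicate 1, MEE67 had 2.16 and EMB2729 3.07, with 3.15 to 3.84 and 3.77 to 4.11 in the others. In 2cpab replicate 2, LHCB6 had 904 and SYP111 9.88, with 980 to 1021 and 6.32 to 7.0 in the others.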

How the results depend on the processing

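Against 1030 called loci (609 higher, 421 lower), the count was 586 (323 and 263) when low loci were kept, 1957 (1761 and 196) when the scaling of the authors was undone, 598 (361 and 237) with the replicate number as a block, and 2274 (1273 and 1001) at an adjusted p under 0.1, a threshold added after seeing the data. The cause was not tested. Leaving out 1 sample gave 16 to 1086 called, 9 to 705 higher and 7 to 381 lower. Same-numbered samples are known to share only a number. After each genotype's mean was removed, those of wild type and 2cpab correlated at 0.21, -0.13 and 0.01. Those of wild type and ntrc-2cpab correlated at 0.02, -0.14 and -0.12, and those of the 2 mutants at 0.11, -0.16 and 0.16. With 3 samples per genotype, these values cannot show whether same-numbered samples shared a batch. With 3 genotypes in the fit, a higher filter, other offsets, quantile or other scaling, weights and variance models the count stayed within 1.5 times, at 837 to 1304. Of the named genes' values under settings other than a left-out sample, 88 lost their call and 1366 kept theirs or stayed uncalled. No gene called in the main fit or in the alternative changed direction. Directions of genes called in neither were not compared. In the 300-base window, 22.4% of rising genes held a heat shock element, 42.6% a site II element, 21.9% a telo box and 32% a W box. Depth is unknown, and no alternative bears on it.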
